A study of Homo sapiens with 6 samples.

Results

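The genes described here are the human collagen genes and the enzymes and chaperone that modify collagen in the cell and cross-link it outside. They were chosen by name, as every protein-coding gene whose symbol has the form COL, number, A, number, together with P4HA1, P4HA2, P4HA3, PLOD1, PLOD2, PLOD3, LOX, LOXL1, LOXL2, LOXL3, LOXL4 and SERPINH1. This gave 56 genes of the 58051 in the deposited table, 44 of them collagen genes and 12 modifying genes. A test was run on the 24 of them whose mean across the 6 libraries reached 0.5 FPKM, 13 collagen genes and 11 modifying genes. FPKM is a read count scaled to the length of the gene and the depth of the library. The length that matched the deposited values for 15 of the 24 tested genes was that of all annotated exons together. This can be much longer than the transcript in use, as with COL27A1, at 13988 bases against a coding sequence of 5580. Levels of different genes, and their shares and ratios, therefore depend on the lengths used. The ratio of group means within a gene does not. The log2 differences given below add 1 to each FPKM, so they do depend on the length, most of all at low levels.

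A collagen molecule is a rope of 3 chains, and glycine must recur at a fixed spacing along each chain. Chains are made in the endoplasmic reticulum, where prolyl hydroxylases (the P4HA genes) stabilise the helix, lysyl hydroxylases (the PLOD genes) prepare cross-linking sites and the chaperone SERPINH1, also called HSP47, holds the folded molecule. After secretion, lysyl oxidases (LOX and the LOXL genes) cross-link the molecules. Fibril-forming collagens such as types I, III and V build the strands of connective tissue, whereas type IV collagen builds the sheet of basement membranes, including that under the endothelium.

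RNA was sequenced from NTera-2 (NT2) cells, labelled as an embryonal carcinoma line. By title, 3 libraries are from cells that received mimics of piR-36249, a small RNA of the PIWI-interacting class, and 3 are from cells that received a scramble control. The genotype field calls the mimic libraries a knockdown of piR-36249 and the scramble libraries control, while the treatment field calls both an overexpression, of mimics and of scramble. Grouping followed the titles, and every difference below is mimic minus scramble. No label states that libraries of 1 group stem from different cultures, and p-values therefore cover only the spread between these libraries, which may be technical.

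Depth, as recovered from the FPKM values, was between 47987876 and 62738029 reads per library. The labelled cell type did not match its markers in either group: of 8 embryonal carcinoma genes 0 reached a mean of 0.5 FPKM and 5, among them NANOG and SOX2, were at 0 in every library, with the list summing to between 0.183 and 0.270 FPKM in mimic libraries and between 0.204 and 0.301 FPKM in scramble libraries. Of 10 endothelial genes 7 were above 1 FPKM in every library, and their list summed to between 1023 and 1095 FPKM in mimic libraries and between 754 and 806 FPKM in scramble libraries. VWF, KDR and CLDN5 of that list had means of 0.434, 0.0192 and 0.110 FPKM. Of the 7 tested endothelial genes 6 rose and 0 fell, against 18.7% higher and 16.8% lower among all tested genes, so this list moved with the groups. ENG, with a mean of 540 FPKM over all libraries, was the largest part of the endothelial sum. The sum of 8 fibroblast genes was 6.16 to 6.74 FPKM in mimic libraries and 4.53 to 4.90 FPKM in scramble libraries, with THY1 as its only gene above 1 FPKM and with COL1A1, COL1A2 and COL3A1 among its genes. That of 8 pericyte and smooth muscle genes was 3.07 to 3.43 FPKM in mimic libraries and 2.70 to 2.86 FPKM in scramble libraries. The 5 epithelial genes summed to 303 to 318 FPKM in mimic libraries and 293 to 323 FPKM in scramble libraries. Almost all of this was KRT8 and KRT18, with means of 146 and 163 FPKM. EPCAM and KRT19 had means of 0.106 and 0.186 FPKM, and CDH1 was at 0 in every library. The 6 blood genes summed to at most 0.146 FPKM in mimic libraries and 0.0297 FPKM in scramble libraries. The part of these lists in the results below was not tested, and in bulk RNA fewer cells of a type cannot be told apart from less RNA per cell.

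Most of the expressed genes were higher with the mimic. Among the 24 tested genes, 15 were called higher, 2 were called lower and 7 missed the threshold (limma on log2(FPKM + 1), adjusted p under 0.05 over all 12912 genes tested). Among all tested genes 18.7% rose, 16.8% fell and 35.5% passed in either direction, against 62.5% higher and 8.33% lower among the 24. The median difference was 0.20 on the log2 scale over the 24 genes and 0.0025 over all tested genes. Collagen genes had 8 of 13 higher and 1 lower, and modifying genes 7 of 11 higher and 1 lower. In 16 of the 24 genes every mimic library lay above every scramble library and in 2 every mimic library lay below, against 26.0% and 23.2% of all tested genes. COL9A3 was the one tested gene with a group mean under 0.5 FPKM, in scramble libraries, so it entered the test through its mimic libraries.

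**Figure D1:**
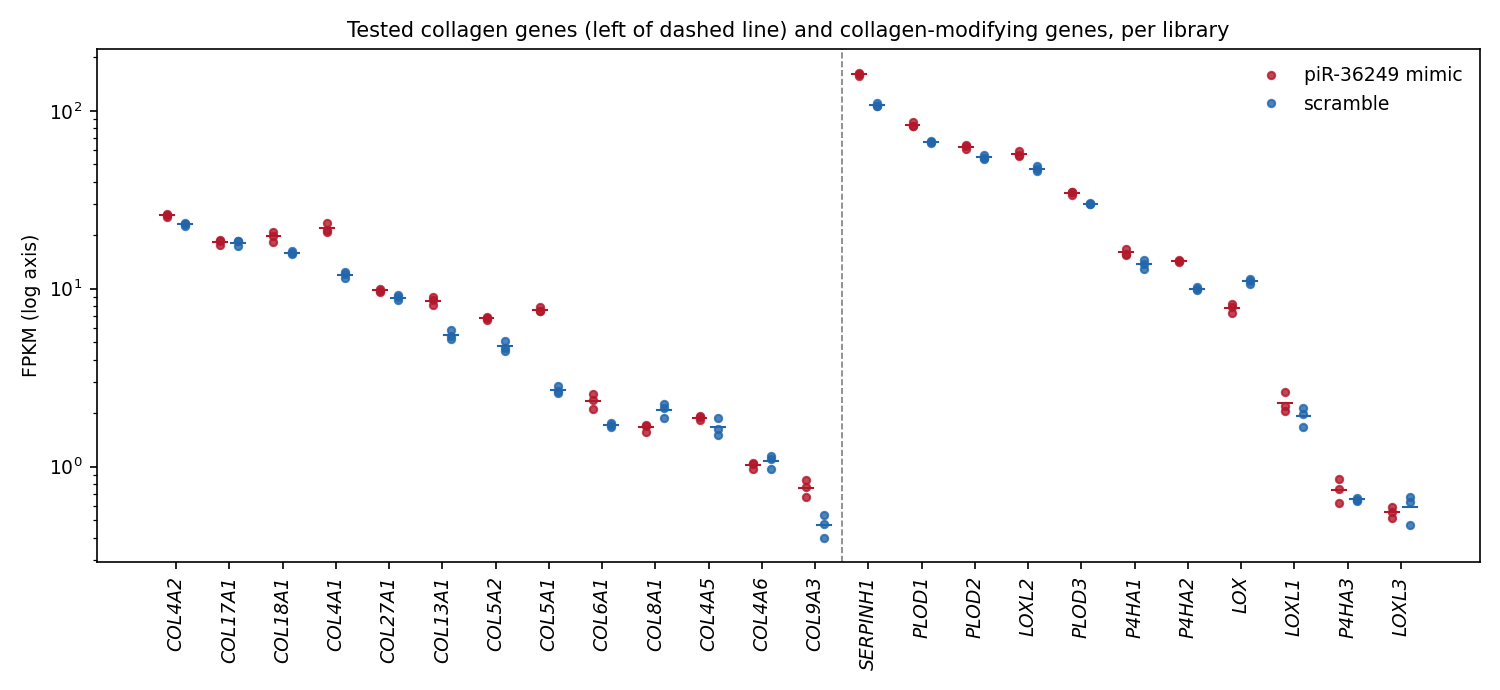
FPKM on a log axis of the 24 tested genes in each library, mimic to the left of scramble for each gene, with a short line at the group mean; collagen genes stand left of the dashed line and modifying genes right of it, each in order of mean level. The separation of the groups is widest for COL5A1 and COL4A1 among collagens, and LOX and COL8A1 are the genes with every mimic library below every scramble library.

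Among the kinds of collagen, type IV of the basement membrane had the largest summed FPKM. The type IV chains together made up 39.5 ± 1.13% of the summed collagen FPKM in mimic libraries and 37.9 ± 0.483% in scramble libraries (SD, n = 3 each), with 37.2 ± 1.12% in mimic libraries and 35.1 ± 0.350% in scramble libraries from COL4A1 and COL4A2, the chains found in almost every basement membrane. The sum over the 44 collagen genes was 128 ± 1.91 FPKM in mimic libraries and 99.5 ± 2.25 FPKM in scramble libraries. These sums and shares depend on the exon length used for each gene, are descriptions and were not tested.

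COL4A1 (ENSG00000187498, chr13:110148963-110307233, minus strand, GRCh38) measured 21.3, 23.5 and 20.8 FPKM in mimic libraries 1 to 3, against 12.4, 12.1 and 11.5 FPKM in scramble libraries 1 to 3. The groups stood clearly apart, with a ratio of means of 1.83 and a log2 difference of 0.82 (SE 0.056, limma adjusted p = 5.3e-05). COL4A2 (ENSG00000134871, chr13:110305812-110513209, plus strand), its partner chain, measured 26.1, 26.3 and 25.2 FPKM in mimic libraries and 23.4, 23.2 and 22.4 FPKM in scramble libraries. COL4A2 also rose without overlap of the libraries, but by less, with a ratio of means of 1.12 and a log2 difference of 0.16 (SE 0.038, limma adjusted p = 0.013).

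The ratio of COL4A1 to COL4A2 was 0.816, 0.895 and 0.825 in mimic libraries and 0.531, 0.521 and 0.512 in scramble libraries. A ratio within a library does not depend on how libraries are scaled, and the groups did not overlap. The level of the ratio depends on the exon lengths of both genes, neither of which gave whole reads, but its difference between groups does not. The difference of the log2 ratios was 0.70 (SE 0.045), with an exact two-sided permutation p = 0.1, the smallest that 3 against 3 libraries allow. This ratio and the 2 others given below were chosen after their values were seen, and p adjusted over the 3 ratios is 0.1 for each.

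The pair is shown because COL4A1 and COL4A2 are transcribed away from each other from starts that lie 127 bases apart, so that their promoter windows share 226 of 300 bases. The windows run from 250 bases before to 50 bases after the first listed RefSeq start of each gene (GRCh38.p14), each printed along its own gene's strand. Capitals mark GC boxes (GGGCGG) and CCAAT boxes (CCAAT) on either strand.
COL4A1, chr13:110307108-110307407, minus strand: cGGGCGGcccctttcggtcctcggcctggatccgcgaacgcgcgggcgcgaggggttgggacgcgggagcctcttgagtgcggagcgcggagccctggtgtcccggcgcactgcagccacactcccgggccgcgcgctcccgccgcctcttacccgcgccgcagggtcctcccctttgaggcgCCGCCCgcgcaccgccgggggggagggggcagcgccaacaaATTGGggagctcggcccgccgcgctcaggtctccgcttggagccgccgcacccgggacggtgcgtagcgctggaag
COL4A2, chr13:110307034-110307333, plus strand: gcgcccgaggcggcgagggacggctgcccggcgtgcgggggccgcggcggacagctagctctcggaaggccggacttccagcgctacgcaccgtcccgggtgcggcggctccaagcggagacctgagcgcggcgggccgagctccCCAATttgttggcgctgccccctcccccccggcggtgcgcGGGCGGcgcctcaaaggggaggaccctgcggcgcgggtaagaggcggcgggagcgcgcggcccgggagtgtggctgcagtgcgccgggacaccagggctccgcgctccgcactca

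A CCAAT box and a GC box lie in the stretch that the windows have in common, and the COL4A1 window holds a further GC box near its start. The other type IV genes are paired in the same way. COL4A5 and COL4A6, the X-linked pair, share 121 bases of their windows and measured 1.89 ± 0.0442 and 1.02 ± 0.0402 FPKM in mimic libraries, against 1.67 ± 0.188 and 1.07 ± 0.0873 FPKM in scramble libraries. Neither passed the test, with log2 differences of 0.12 (SE 0.067, limma adjusted p = 0.217) for COL4A5 and -0.04 (SE 0.063, limma adjusted p = 0.649) for COL4A6. COL4A3 and COL4A4, the pair known from the kidney filter and the lung, had mean levels of 0.00672 and 0.00426 FPKM and were not tested.

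COL5A1 (ENSG00000130635, chr9:134641774-134844843, plus strand), a chain of type V collagen, which starts the assembly of fibrils, had the largest difference of all 24 genes. It measured 7.46, 7.87 and 7.47 FPKM in mimic libraries 1 to 3, against 2.85, 2.60 and 2.67 FPKM in scramble libraries 1 to 3. The lowest mimic library lay far above the highest scramble library, with a ratio of means of 2.81. The log2 difference was 1.21 (SE 0.050, limma adjusted p = 1.0e-05), which ranked 8 among 12912 tested genes counted from the highest. On the log2(FPKM + 1) scale the change of genes with low values is understated, and the authors' deposited table gave COL5A1 a log2 fold change of 1.48.

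COL5A2 (ENSG00000204262, chr2:189031896-189225312, minus strand), the usual partner of COL5A1 in type V molecules, measured 6.97, 6.84 and 6.65 FPKM in mimic libraries and 5.11, 4.47 and 4.65 FPKM in scramble libraries. It also rose without overlap, with a log2 difference of 0.45 (SE 0.054, limma adjusted p = 0.00072). The ratio of COL5A1 to COL5A2 was 1.12 ± 0.0406 in mimic libraries and 0.571 ± 0.0124 in scramble libraries (SD, n = 3 each). In the common type V molecule the COL5A1 chain is the more numerous, but the level of this ratio does not show which RNA was the more abundant. It depends on the exon lengths used, 11189 bases for COL5A1 and 7453 for COL5A2, and the COL5A2 length did not give whole reads. The difference between groups does not depend on these lengths. The difference of the log2 ratios was 0.97 (SE 0.035, exact two-sided permutation p = 0.1).

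The promoter window of COL5A1 is printed as that of the collagen with the largest difference, with capitals for GC boxes, of which it holds 2. It holds no CCAAT box.
COL5A1, chr9:134641553-134641852, plus strand: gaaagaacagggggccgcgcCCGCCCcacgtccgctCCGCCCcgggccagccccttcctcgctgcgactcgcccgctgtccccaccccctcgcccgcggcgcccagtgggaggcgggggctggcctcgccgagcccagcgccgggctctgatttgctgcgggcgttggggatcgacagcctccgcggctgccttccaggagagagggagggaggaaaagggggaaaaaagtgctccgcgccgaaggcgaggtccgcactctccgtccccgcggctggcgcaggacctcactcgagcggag

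Among the other fibril-forming collagens only COL27A1 passed the filter. COL27A1, a fibril-forming chain known from cartilage, measured 9.77 ± 0.213 FPKM in mimic libraries and 8.92 ± 0.255 FPKM in scramble libraries. The libraries did not overlap, but the COL27A1 log2 difference of 0.12 (SE 0.042) did not pass the test (limma adjusted p = 0.060). It passed with voom on recovered reads (adjusted p = 0.037). COL1A1, the main chain of type I collagen, was under the filter at 0.276, 0.268 and 0.257 FPKM in mimic libraries and 0.0958, 0.108 and 0.114 FPKM in scramble libraries, which are 159, 142 and 121 recovered reads against 59, 56 and 60. The mimic libraries all lay above the scramble libraries, with a ratio of means of 2.52, and the authors' deposited table gave COL1A1 a log2 fold change of 1.33. COL1A2, whose chain completes the usual type I molecule, had a mean level of 0.00075 FPKM, and COL3A1 had 0.144 ± 0.0528 FPKM in mimic libraries and 0.0782 ± 0.0171 FPKM in scramble libraries, with overlapping groups.

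The remaining expressed collagens lie at basement membranes, cell surfaces and microfibrils. COL18A1, a basement membrane collagen from which the angiogenesis inhibitor endostatin is cut, measured 19.7 ± 1.22 FPKM in mimic libraries and 15.97 ± 0.311 FPKM in scramble libraries and rose by 0.29 on the log2 scale (SE 0.050, limma adjusted p = 0.0039). Its exons share 1401 bases, 16.4% of their length, with SLC19A1 on the opposite strand, which measured 12.2 to 12.9 FPKM in mimic libraries and 12.4 to 13.4 FPKM in scramble libraries; whether the counting used strand is not given in the sources used here, so reads from the shared bases cannot be assigned to either gene. COL13A1, a collagen anchored in the cell membrane and known from the neuromuscular junction, measured 8.94, 8.64 and 8.07 FPKM in mimic libraries and 5.45, 5.23 and 5.85 FPKM in scramble libraries. COL13A1 rose by 0.55 on the log2 scale (SE 0.056, limma adjusted p = 0.00031). COL17A1, the membrane collagen of epithelial hemidesmosomes, measured 18.3 ± 0.569 FPKM in mimic libraries and 18.1 ± 0.673 FPKM in scramble libraries, a log2 difference of 0.01 (SE 0.044, limma adjusted p = 0.815).

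COL6A1 of the beaded microfibrils measured 2.57, 2.12 and 2.36 FPKM in mimic libraries and 1.77, 1.71 and 1.68 FPKM in scramble libraries, and rose by 0.30 on the log2 scale (SE 0.066, limma adjusted p = 0.010). Type VI molecules are built with COL6A2 and, in most tissues, COL6A3. COL6A2 had 0.0998 ± 0.0371 FPKM in mimic libraries and 0.0373 ± 0.0207 FPKM in scramble libraries, and COL6A3 was listed at 0 in all 6 libraries. COL9A3, a chain of the collagen that coats cartilage fibrils, measured 0.760 ± 0.0837 FPKM in mimic libraries and 0.468 ± 0.0692 FPKM in scramble libraries, and rose by 0.26 on the log2 scale (SE 0.074, limma adjusted p = 0.027). At so low a level this value depends on the pseudocount of 1, and it was 0.60 with a pseudocount of 0.1 and 0.69 with one of 0.01 or with voom on recovered reads. Its exons share 45 bases with TCFL5 on the opposite strand, a gene at 5.88 to 6.11 FPKM in mimic libraries and 5.54 to 6.10 FPKM in scramble libraries. Leaving out mimic library 1 or 3, or scramble library 1 or 2, ended the COL9A3 call, with limma adjusted p up to 0.089. COL8A1, a short chain of vessel walls and of the corneal endothelium, was the collagen gene that fell, at 1.71, 1.58 and 1.69 FPKM in mimic libraries and 2.26, 1.87 and 2.14 FPKM in scramble libraries, with a log2 difference of -0.21 (SE 0.066, limma adjusted p = 0.039), or -0.33 with a pseudocount of 0.01 or with voom. Leaving out any 1 library except scramble library 2 ended the COL8A1 call, with limma adjusted p up to 0.131.

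**Figure D2:**
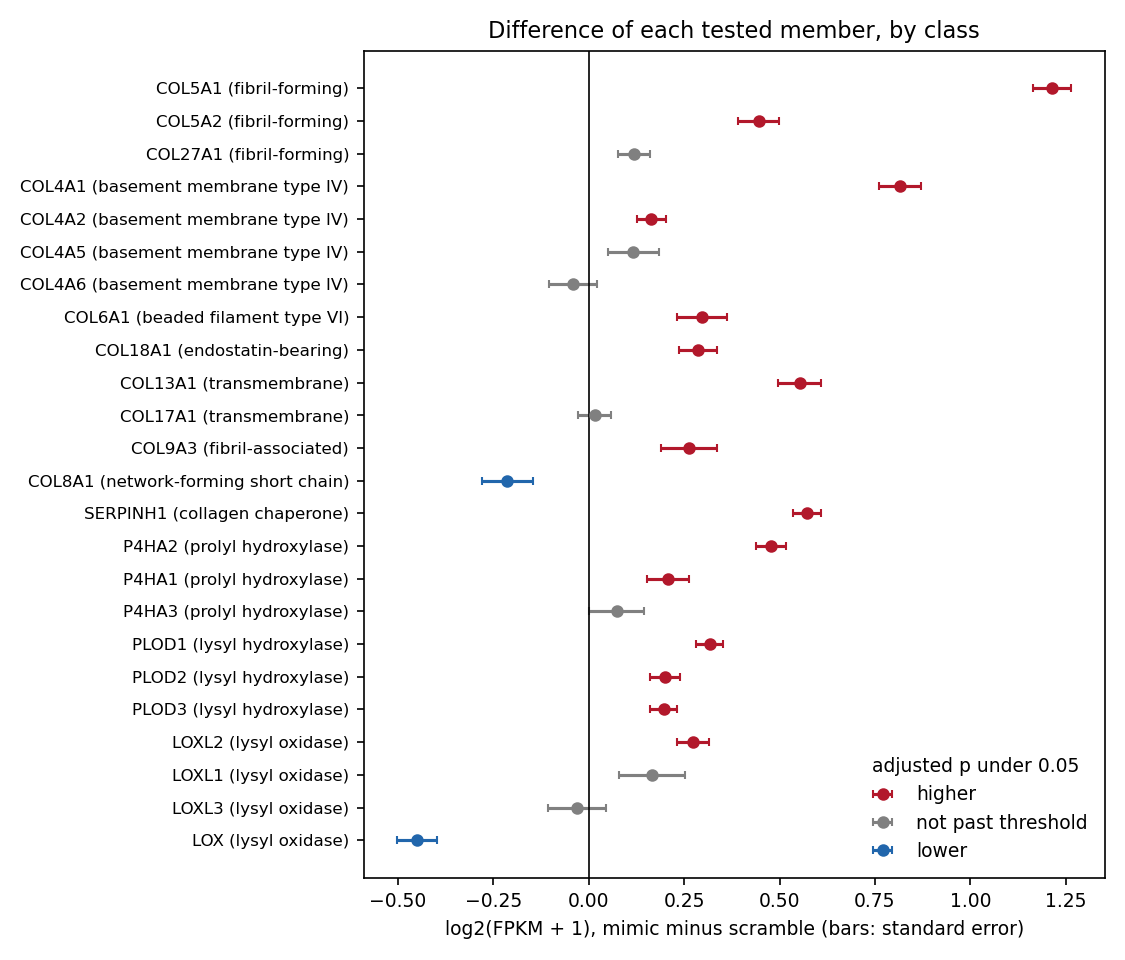
Difference of log2(FPKM + 1), mimic minus scramble, for the 24 tested genes grouped by class, with bars for the standard error (n = 3 libraries each) and colours for genes that rose, fell or did not pass the test. Points run between 1.21 for COL5A1 and -0.45 for LOX, and 15 of the 24 are past the threshold to the right of 0.

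Of the 7 genes for the chaperone and the hydroxylases, which act inside the cell, 6 rose. SERPINH1 (ENSG00000149257, chr11:75562056-75572783, plus strand) had the highest FPKM of all 56 genes, at 161, 156 and 164 FPKM in mimic libraries 1 to 3, against 106, 106 and 110.2 FPKM in scramble libraries 1 to 3. The groups did not overlap, with a ratio of means of 1.49 and a log2 difference of 0.57 (SE 0.037, limma adjusted p = 4.5e-05). P4HA2, a catalytic subunit of prolyl hydroxylase, measured 14.4, 14.1 and 14.4 FPKM in mimic libraries and 9.78, 10.3 and 9.94 FPKM in scramble libraries, and rose by 0.48 on the log2 scale (SE 0.039, limma adjusted p = 0.00012). P4HA1, the alternative catalytic subunit, rose by 0.21 (SE 0.054, limma adjusted p = 0.020), with 16.0 ± 0.672 FPKM in mimic libraries and 13.7 ± 0.839 FPKM in scramble libraries. Leaving out mimic library 1, or scramble library 1 or 3, ended the P4HA1 call, with limma adjusted p up to 0.065. P4HA3, a further catalytic subunit, was at 0.743 ± 0.115 FPKM in mimic libraries and 0.655 ± 0.0147 FPKM in scramble libraries and did not pass (log2 difference 0.07, limma adjusted p = 0.469); its exons share 166 bases with PPME1 on the opposite strand, a gene at over 9 FPKM.

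All 3 lysyl hydroxylase genes rose without overlap of the libraries. PLOD1 measured 82.2, 81.9 and 86.1 FPKM in mimic libraries and 67.2, 66.0 and 67.2 FPKM in scramble libraries, a log2 difference of 0.32 (SE 0.036, limma adjusted p = 0.00056). PLOD2, which hydroxylates the ends of the chains where fibrils are cross-linked, had 63.0 ± 1.62 FPKM in mimic libraries and 54.7 ± 1.75 FPKM in scramble libraries and rose by 0.20 (SE 0.040). PLOD3, which also adds sugars to hydroxylysine, had 34.6 ± 0.891 FPKM in mimic libraries and 30.04 ± 0.176 FPKM in scramble libraries and rose by 0.20 (SE 0.036). PLOD3 shares 429 exonic bases with ZNHIT1 on the opposite strand, which measured 13.8 to 15.6 FPKM in mimic libraries and 13.2 to 13.5 FPKM in scramble libraries, so its level is uncertain without strand.

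The lysyl oxidases went in different directions. LOX (ENSG00000113083, chr5:122063195-122078360, minus strand) measured 8.17, 7.28 and 7.90 FPKM in mimic libraries 1 to 3, against 10.6, 11.4 and 11.04 FPKM in scramble libraries 1 to 3. Every mimic library lay below every scramble library, with a ratio of means of 0.708 and a log2 difference of -0.45 (SE 0.052, limma adjusted p = 0.00060). LOXL2, which is known to cross-link type IV collagen, measured 55.6, 56.7 and 59.4 FPKM in mimic libraries and 48.9, 45.8 and 46.9 FPKM in scramble libraries, and rose by 0.27 on the log2 scale (SE 0.042, limma adjusted p = 0.0022). LOXL2 had the highest FPKM of the lysyl oxidases in every library, by the exon lengths used, and the LOX length did not give whole reads. The ratio of LOXL2 to LOX was 7.36 ± 0.509 in mimic libraries and 4.30 ± 0.293 in scramble libraries (SD, n = 3 each), and the difference of the log2 ratios was 0.78 (SE 0.081, exact two-sided permutation p = 0.1). LOXL1, with a log2 difference of 0.17 (limma adjusted p = 0.175), and LOXL3, with -0.03 (limma adjusted p = 0.780), did not pass. LOXL1 and LOXL3 share exonic bases with genes on the opposite strand that measured more than they did, LOXL1-AS1 for LOXL1 and DOK1 and HTRA2 for LOXL3, so their levels are uncertain without strand. LOX shares 138 bases with SRFBP1 on the opposite strand, at 4.05 to 4.75 FPKM in mimic libraries and 3.80 to 4.22 FPKM in scramble libraries. LOXL2 shares 120 bases with ENTPD4 on the same strand, at 5.66 to 6.04 FPKM in mimic libraries and 7.55 to 8.15 FPKM in scramble libraries. LOXL4 had a mean level of 0.0097 FPKM.

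**Figure D3:**
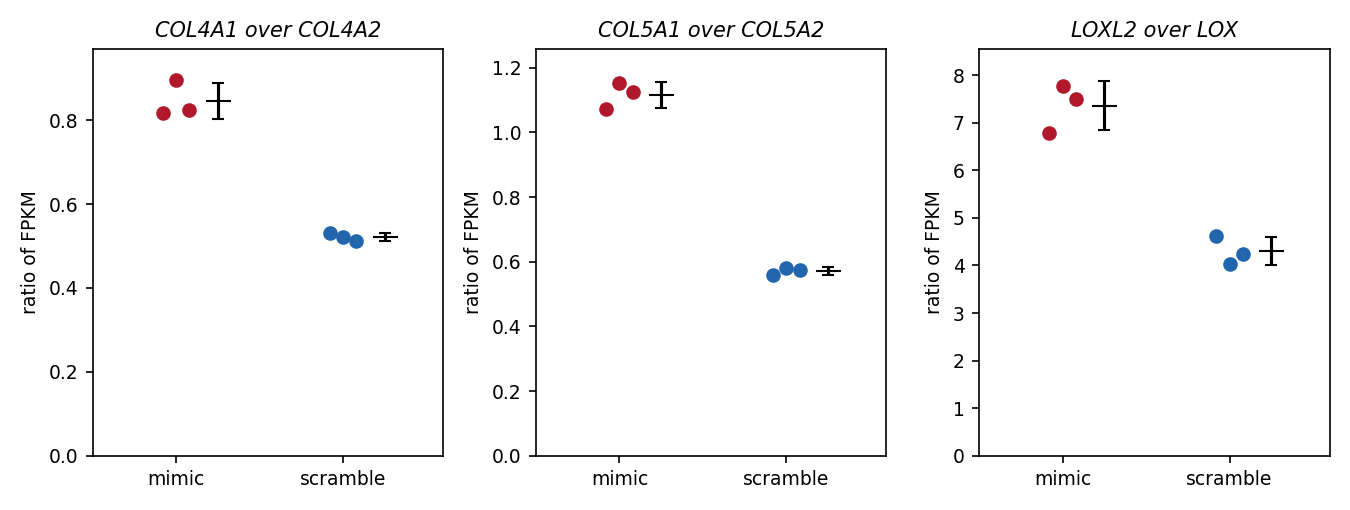
Ratios of FPKM within each library for COL4A1 over COL4A2, COL5A1 over COL5A2 and LOXL2 over LOX, mimic left of scramble, with points for libraries and bars for the mean and SD (n = 3 each). In each panel the 3 mimic libraries stand above the 3 scramble libraries, at 0.845 against 0.521, 1.12 against 0.571 and 7.36 against 4.30 on average.

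The promoter windows of SERPINH1 and LOX are printed as those of the modifying genes with the largest rise and the largest fall. In SERPINH1, a heat shock protein gene, capitals mark the heat shock element letters GAANNTTC, and in LOX, a known hypoxia target, the core letters ACGTG of hypoxia response elements, on either strand.
SERPINH1, chr11:75562003-75562302, plus strand: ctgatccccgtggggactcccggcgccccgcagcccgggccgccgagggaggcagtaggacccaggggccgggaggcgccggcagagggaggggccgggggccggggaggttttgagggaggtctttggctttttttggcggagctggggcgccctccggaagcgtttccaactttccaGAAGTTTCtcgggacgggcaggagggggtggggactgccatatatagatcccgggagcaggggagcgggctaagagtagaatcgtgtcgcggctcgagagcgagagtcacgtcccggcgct
LOX, chr5:122078210-122078509, minus strand: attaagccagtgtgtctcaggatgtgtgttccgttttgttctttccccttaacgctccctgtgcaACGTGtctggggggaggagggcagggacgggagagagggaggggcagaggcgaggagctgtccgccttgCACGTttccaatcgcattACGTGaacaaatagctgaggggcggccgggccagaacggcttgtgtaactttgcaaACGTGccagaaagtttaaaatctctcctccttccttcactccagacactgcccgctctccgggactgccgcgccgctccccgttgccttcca

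The LOX window holds ACGTG 4 times. Of the 24 tested genes 18 had a RefSeq promoter window, of which 5 (27.8%) held ACGTG and 4 (22.2%) held GAANNTTC, against 21.6% and 6.87% of the 27305 genes with a window. GC boxes were in 9 of the 18 windows (50%) and CCAAT boxes in 8 (44.4%), against 44.6% and 35.7% of all windows. TATAAA was in 3 of the 18 (16.7%) and in 11.95% of all. The 18 windows are not independent. COL4A1 and COL4A2 share a GC box and a CCAAT box, each counted for both genes, and the windows of COL4A5 and COL4A6 share 121 bases. The COL4A5 and COL4A6 windows both hold GAANNTTC, and whether this is the same site counted for both genes was not tested. The shares over all windows also include genes that were not tested here. The letters are a description of these windows, not of sites in use.

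The coding sequences of the collagens share a feature that is tied to the choice by name. Collagen chains need glycine at a fixed spacing, and glycine codons begin with GG. A high density of G was thus largely set by choosing collagens, and the contrast with other genes is a description. DHX36, named in the title of the series, is a helicase that unwinds G-quadruplexes, folds that form where runs of G lie close together. A pattern of 4 runs of at least 3 G with gaps of 1 to 7 bases was sought on the coding strand of the longest annotated coding sequence of each gene in GENCODE 29. It was present in all 13 tested collagen genes and in none of the 11 tested modifying genes, against 733 of 10620 tested genes with a coding sequence (6.90%). Collagen coding sequences are long, with a median of 5007 bases against 1407 over all tested genes, but the pattern was also denser in them, at 1.05 per kb against 0.0466 per kb. Codons that begin with GG made up 15.2% to 30.7% of the 13 collagen coding sequences, with a median of 26.6%, against 6.4% over all tested genes.

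The first such pattern in the coding sequence is shown for the chains that the results turn on and for COL27A1, which held the largest number among the 13 genes, with capitals for the G runs.
COL5A1, coding bases 1746 to 1775: GGGcgagccGGGagacgtGGGGcctcaGGG
COL4A1, coding bases 1427 to 1457: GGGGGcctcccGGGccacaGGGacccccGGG
COL4A2, coding bases 190 to 219: GGGccagtGGGcccccaGGGGtacaatGGG
COL27A1, coding bases 2062 to 2091: GGGGcaaaGGGtgacatGGGcttgcctGGG

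The number of patterns is given beside the log2 difference of each of the 13 genes as a description, and a relation between them was not tested. COL27A1 held 14 patterns beside a log2 difference of 0.12 and COL4A2 held 8 beside 0.16. The genes with 5 patterns were COL5A1, COL4A1, COL6A1 and COL9A3, with log2 differences of 1.21, 0.82, 0.30 and 0.26. Those with 3 were COL13A1, COL18A1 and COL4A6, with log2 differences of 0.55, 0.29 and -0.04. Those with 2 were COL5A2, COL4A5 and COL8A1, with log2 differences of 0.45, 0.12 and -0.21, and COL17A1 held 1 beside 0.01. Whether any of these sequences folds or is bound in these cells was not tested. The same pattern on either strand was in 12 of the 18 promoter windows of tested genes (66.7%), against 24.1% of all windows. The latter share includes genes that were not tested, so it is not a background of expressed genes.

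**Figure D4:**
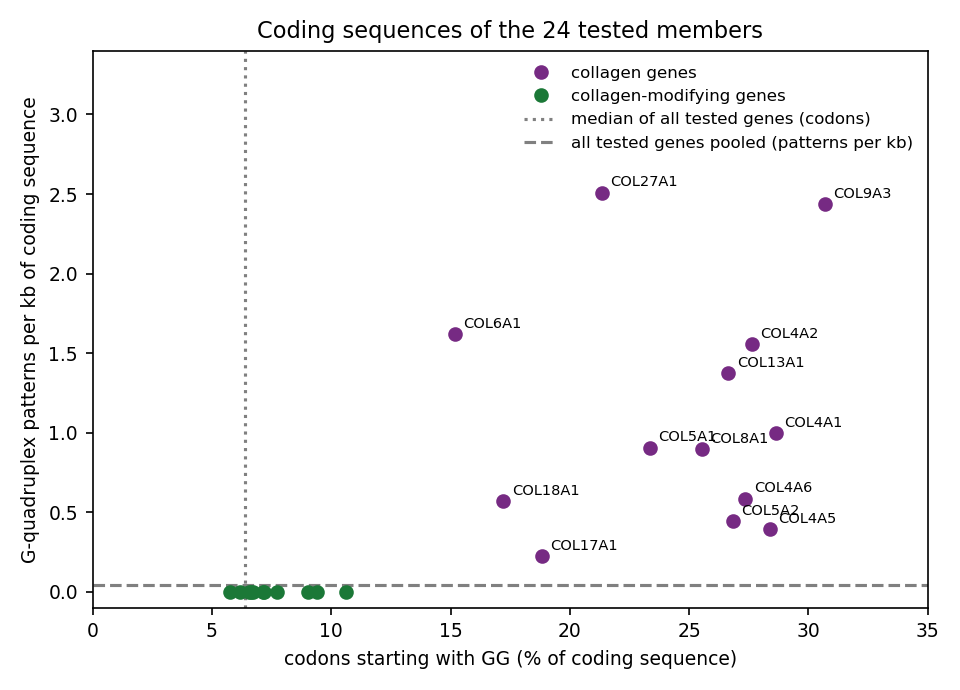
Share of codons that begin with GG (percent of the coding sequence) against G-quadruplex patterns per kb of coding sequence for the 24 tested genes, with grey lines for the median share and the pooled density of all tested genes. The 13 collagen genes lie to the right, at 15.2% or more, and all have at least 1 pattern, while the 11 modifying genes lie at 10.6% or less with none.

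Of the 56 genes, 32 were under the filter of 0.5 FPKM, and 2 of them, COL6A3 and COL25A1, were at 0 in every library. Nearest to the filter were LOXL3 and COL9A3 above it, with means of 0.574 and 0.614 FPKM, and COL14A1 and COL16A1 below it, with 0.471 and 0.348 FPKM. There were 6 genes between 0.1 and 0.5 FPKM (COL14A1, COL16A1, COL11A2, COL1A1, COL3A1 and COL7A1) and 26 below 0.1 FPKM, of which 18 were at 0 in at least 1 library. Among the 32 genes 17 had the higher mean in mimic libraries and 13 the lower one. When all genes with a mean of at least 10 recovered reads were tested with voom, 9 of the 32 could be read and 2 passed, COL1A1 with a log2 difference of 1.34 (SE 0.195, adjusted p = 0.00015) and COL6A2 with 1.53 (SE 0.479, adjusted p = 0.026), both higher. In that test 17.4% of 16293 genes were called higher. COL6A2 rested on few reads, 45, 22 and 21 in mimic libraries and 6, 10 and 17 in scramble libraries. The authors' deposited table of 401 genes, in which every absolute log2 fold change is above 1, listed COL5A1, COL1A1 and COL6A2 of the 56 genes, COL6A2 with a log2 fold change of 1.43.

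Genes that handle collagen at other steps were read from 6 lists. Of their 65 genes 39 were tested, 18 rose (46.2%), 5 fell (12.8%) and 16 did not pass, against 18.7% higher and 16.8% lower among all tested genes. Among 11 tested folding and modification partners 3 rose and 1 fell, so that 36.4% passed, close to the 35.5% of all tested genes that passed in either direction. P3H4, a partner of lysyl hydroxylase, rose by 0.47 on the log2 scale, FKBP14, a prolyl isomerase, by 0.29 and P3H3 by 0.18, while the prolyl 3-hydroxylase P3H2, which is known to act on type IV collagen, fell to 5.55 ± 0.138 FPKM in mimic libraries, against 8.47 ± 0.167 FPKM in scramble libraries (log2 -0.53, limma adjusted p = 0.00011). P4HB, the shared subunit of prolyl hydroxylases, did not pass, at 95.2 ± 1.12 FPKM in mimic libraries and 90.7 ± 2.14 FPKM in scramble libraries. Of 8 tested genes of export from the endoplasmic reticulum 4 rose and 2 fell, and 75% passed in either direction. SEC23A, a coat protein of the vesicles that carry procollagen, rose by 0.49 and TMEM38B, an ion channel of the endoplasmic reticulum, by 0.32, and KLHL12, an adaptor that helps build large vesicles, and the GTPase SAR1B fell by 0.30 and by 0.28 on the log2 scale.

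The lists that follow held 3 to 7 tested genes each, and their counts stand beside 18.7% higher and 16.8% lower among all tested genes. All 3 tested genes of procollagen cleavage rose. FURIN, a protease that activates other proteases and cleaves some procollagens, measured 104.8 ± 2.50 FPKM in mimic libraries and 52.8 ± 2.69 FPKM in scramble libraries (log2 0.98, limma adjusted p = 1.6e-05). BMP1, which removes the carboxyl end of fibrillar procollagens, rose by 0.47 and its enhancer PCOLCE by 0.34, while ADAMTS2 and ADAMTS3, which remove the amino end, were listed at 0 in every library. Of 5 tested collagen receptors 4 rose, ITGA2 by 0.40, ITGA10 by 0.36, the uptake receptor MRC2 by 0.21 and ITGB1 by 0.19. Of 5 fibril assembly genes 2 rose and 1 fell, with SPARC, a collagen-binding protein, at 1.15, FBN1 at 0.29 and TNC at -0.44, while FN1 (0.16, limma adjusted p = 0.074) did not pass. Of 7 tested breakdown genes 2 rose and 1 fell, and the 42.9% that passed is near the 35.5% of all tested genes. MMP2, which degrades type IV collagen among others, rose by 1.17 and CTSL, a lysosomal protease, by 0.32, and MMP1, the interstitial collagenase, fell to 1663 ± 38.6 FPKM in mimic libraries, against 2221 ± 27.8 FPKM in scramble libraries (log2 -0.42, limma adjusted p = 0.00051). MMP14, a membrane-bound collagenase, did not pass (log2 0.09, limma adjusted p = 0.119).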

How the data were processed

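Build GRCh38, Trimmomatic 0.39, HISAT2 2.1.0, DESeq2 1.26.0 and featureCounts 2.0.1 are named in the submitters' processing notes, but annotation and counting options are not. FPKM per Ensembl gene in 6 libraries was deposited by the authors, with 0 further sample columns. The authors' deposited comparison table holds a mean of normalized counts (a signal), a log2 fold change with its standard error, a test statistic (a score) and p-values, per the file headers. Symbols came from a table of gene names and gene types and positions from GENCODE 29, with 57447 of 58051 identifiers matched. FPKM times union exon length gave whole multiples of a step in each library (95.3% to 95.6% of values under 100 reads, tolerance 0.02), which gave the depth; 15 of the 24 tested genes came out whole in all libraries and reads of the others are approximate. Whether reads or fragments were counted is unknown.

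Values were taken as log2(FPKM + 1) and fitted in R 4.3.3 by limma 3.58.1, allowing for a trend in variance and with group as the only term. The fit held 12912 genes whose mean across libraries reached 0.5 FPKM, and p-values were adjusted over all of them (Benjamini-Hochberg) at 0.05. Ratios within libraries were compared with exact permutation tests. Members and lists were chosen with earlier results of these data known. All members are accounted for; of the other lists up to 4 genes with the smallest p are named, and P4HB, ADAMTS2, ADAMTS3, the members under 0.5 FPKM that are named, and the ratios were chosen after their values were seen. Alternatives covered the pseudocount, filter, scaling, variance model, recovered reads, replicate block and each library left out. Same-numbered libraries deviated with correlations of -0.06, 0.24 and 0.05, so the numbers were not taken to pair libraries. Promoter sequences are RefSeq's (GRCh38.p14), and where several starts are listed the first was used.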

Additional observations from a re-analysis of the deposited data

How the results depend on the processing

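None of the 17 genes that passed changed direction in any alternative that tested it. Among genes short of the threshold, COL17A1 ranged between -0.0145 (without scramble replicate 3) and 0.0397 with single libraries left out, and LOXL3 between -0.0875 and 0.0061 (without scramble replicate 1). Of the 24 genes, 1 in place of 2 was called lower with a filter of 0.1 FPKM, of 5 FPKM or with no filter. With single libraries left out the count was 1 to 2. COL8A1 is the gene lost in each case. At a filter of 5 FPKM it was lost by its own level, and why it was lost in the other cases was not tested. Genes called higher numbered 15, and 13 to 15 with single libraries left out. Over all members tested in each case, they numbered 16 with a filter of 0.1 FPKM, 14 with no filter and 13 with one of 5 FPKM. With voom they numbered 16 on recovered reads and 18 in the test with at least 10 reads. The median log2 difference over all tested members, called or not, was 0.28 at a filter of 5 FPKM, which leaves 16 genes, and 0.18 to 0.23 with single libraries left out. Over all genes 4584 passed, and 3387 to 3998 with single libraries left out. With the replicate block, 4609 genes passed over all, 15 of the 24 higher and 2 lower. The calls of the 17 genes were kept in 287 recomputations and lost in 16 (COL8A1, COL9A3 and P4HA1), and of the 7 uncalled genes COL27A1 gained a call in 2, with voom on recovered reads. The test with at least 10 reads was chosen after seeing the data. Depth limits the 23 genes under 10 recovered reads on average, for which no difference was detectable or excluded.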
